A study of Mus musculus with 6 samples.

Results

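Glutamate, GABA and glycine are the fast transmitters of the retina, and the genes described here encode the subunits of the receptors that detect them. Members were chosen by gene symbol alone: symbols that begin with Gria, Grid, Grik, Grin or Grm followed by a digit, and the symbols of the Gabr, Glra and Glrb families. This gave 51 of the 19401 genes listed in the files. Of these, 49 encode subunits. The other two match the symbol pattern without being subunits: Grid2ip encodes delphilin, a postsynaptic protein that binds the delta receptor, and Grin1os is an antisense RNA of Grin1. All 51 were listed in 5 of the 6 libraries and 50 in EFV library 3, where Gabrp had no row and was taken as 0. Gabra6 also matches the symbol pattern, but it had no row in any of the 6 libraries.

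The libraries were made from 5XFAD mice, which model Alzheimer's disease: their mutant human transgenes, APP among them, are driven by the neuronal Thy1 promoter. Control and efavirenz (EFV)-treated mice all carried these transgenes. The treated mice received EFV in drinking water from the age of 3 months onward, and the controls, untreated in the labels, received vehicle without the drug. All were 9 months old when the retina, with the retinal pigment epithelium (RPE), was taken. The labels give the dose as 0.08 mg/kg body weight, and the methods of the study state another dose. There were 3 libraries per group, each from a pool of 5 to 6 mice, described as male, so the errors below are spreads between pools and not between animals. No group lacked the transgenes, so no comparison with mice free of them is possible here.

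In the retina, photoreceptors and bipolar cells release glutamate, and amacrine and horizontal cells release GABA or glycine. AMPA and kainate receptors are cation channels that pass the fast glutamate signal, NMDA receptors are glutamate channels that also need a co-agonist, and metabotropic glutamate receptors act through G-proteins; GABA-A and glycine receptors are chloride channels that inhibit the cell. ON bipolar cells invert the photoreceptor signal through the metabotropic receptor mGluR6, encoded by Grm6, and bipolar cell terminals are known for GABA-A receptors built of rho subunits. At low doses EFV activates CYP46A1, which converts cholesterol to 24-hydroxycholesterol, a known positive modulator of NMDA receptors. The comparison therefore asks whether the transcripts of the receptors themselves differed between treated and control retina.

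Levels are given in FPKM, fragments scaled by transcript length and library total, as deposited. Because FPKM is scaled by length, it can be compared between genes. Differences between the groups were tested on counts, as log2 fold changes of EFV over control, with the quasi-likelihood test of edgeR and Benjamini-Hochberg adjustment over 15537 genes. Libraries held 23455167 to 24590278 counts. Markers of rods (8 of 8), bipolar cells (9 of 9), amacrine cells (10 of 10), ganglion cells (10 of 10) and RPE (12 of 12) were detected, so the labelled tissue was found. Control library 3 stood apart: its 9 lens markers summed to 3016 FPKM, against 24.6 to 140.9 FPKM in the other libraries.

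Receptor subunit transcripts were plentiful in this tissue, and their summed level overlapped between the groups. The 49 subunits summed to 505, 490 and 482 FPKM in control libraries 1 to 3 and to 498, 491 and 503 FPKM in EFV libraries 1 to 3 (492 ± 11.8 and 497 ± 5.98, SD, n = 3 pools each). The groups overlapped. A mean of 10 FPKM or more was reached by 14 subunits, which held 77.2% of the summed level; 22 lay from 1 to 10 FPKM and 13 below 1 FPKM. Gabrr1, Grik1, Gabrr2 and Grin1 were among the most abundant. In the control pools the coefficient of variation of the 14 abundant subunits ranged from 1.1% to 8.3%, with a median of 4.94%.

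**Figure D1:**
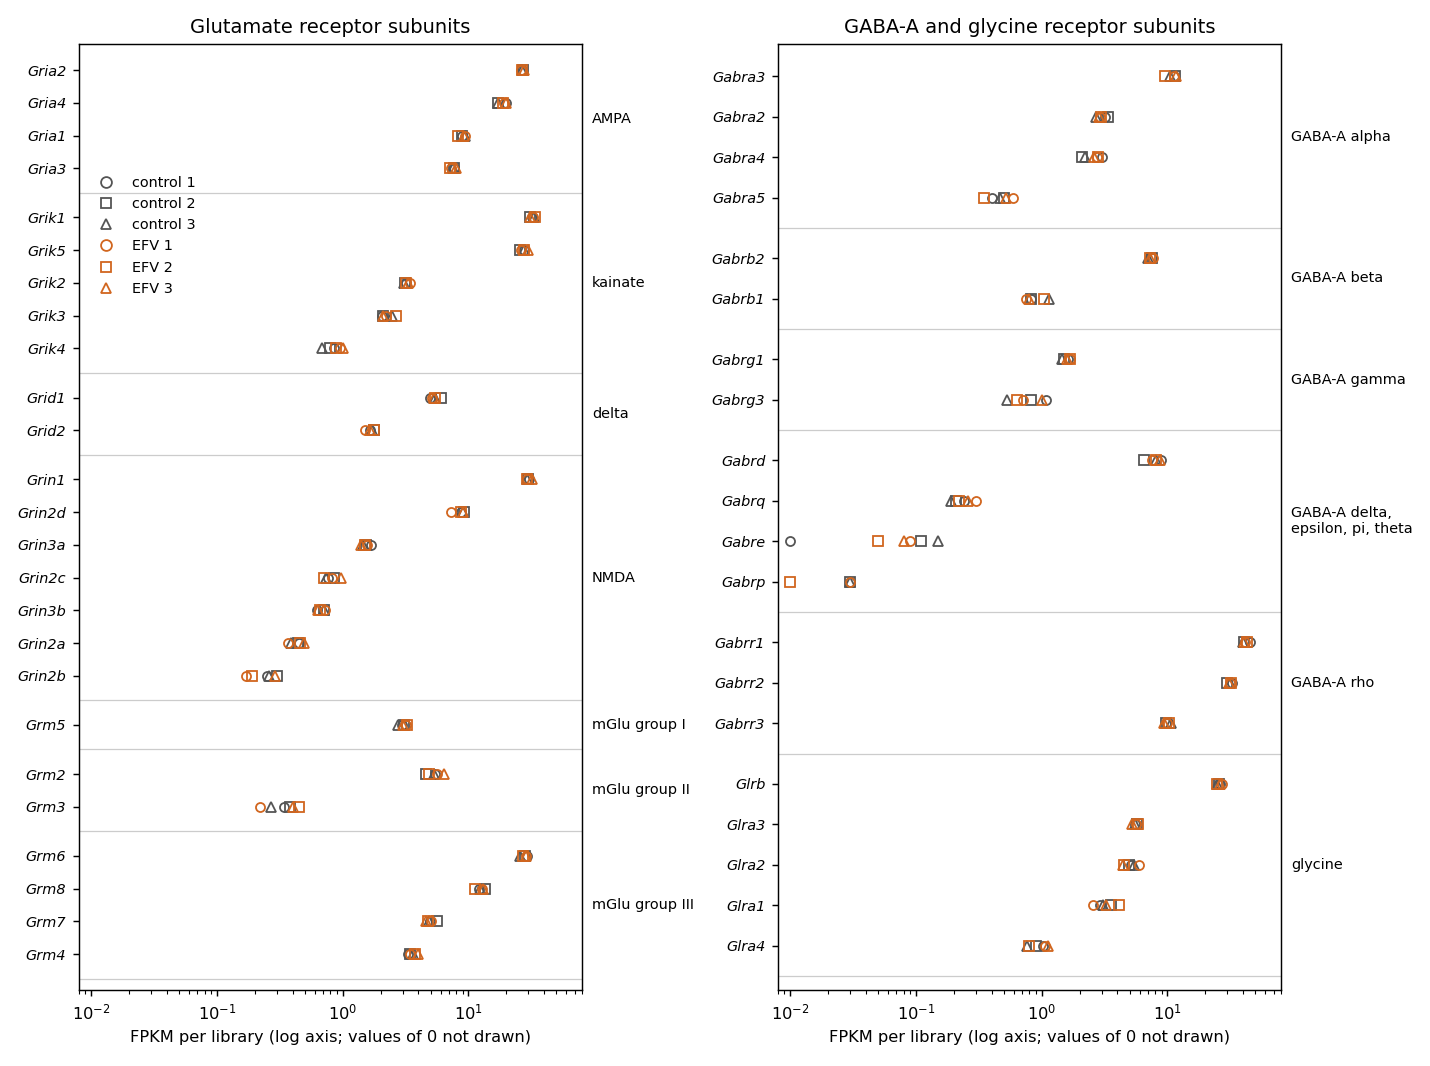
FPKM of 45 of the subunit genes in each of the 6 libraries on a log axis, with glutamate receptors on the left and GABA-A and glycine receptors on the right; grey symbols are control libraries, orange symbols EFV libraries, and each symbol shape is a library number. The symbols of a gene lie close together in both groups for the abundant subunits and spread for those below 1 FPKM, such as Gabre and Grm3.

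Of the 51 members, 49 had at least 10 counts in at least 3 libraries and were tested; Gabre and Gabrp were too low. None passed an adjusted p of 0.05 by edgeR, and over all genes tested the share was 0%. At an unadjusted p of 0.05, 0 of 49 members passed against a background of 3.04% of all genes, and 0 passed the limits of the study (an unadjusted p of 0.05 and a log2 fold change of 0.098 in either direction) against 3.01%. DESeq2 and limma also gave 0 members at either p. A Poisson model, which ignores the spread between pools, gave 5 members at an unadjusted p of 0.05, beside 25.1% of all genes, and 2 past the limits of the study, Grm2 and Grm7, beside 14.8%. With 1 library left out, edgeR gave 2 members past these limits without control library 1 (Gabra4 and Gria4), beside 3.71% of all genes, 1 without EFV library 1 (Glra2), beside 2.86%, 1 without EFV library 3 (Grin2b), beside 3.64%, and 0 without any of the other 3.

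The direction was split, with 24 members above and 25 below 0. Their median log2 fold change was -0.0019, beside 0.0012 over all genes tested, and their median absolute log2 fold change was 0.059, beside 0.057. All 3 EFV libraries lay above all 3 control libraries for Grik2 and Grik4, and the reverse held for 0 members; this is 4.08% of the members, against 8.14% of all genes in either direction. The smallest unadjusted p was 0.154, for Grik4, and the adjusted p was 0.999 or higher for every member tested. A p that misses the threshold does not show equal levels, so the intervals matter more: the 95% interval lay within a 1.2-fold change for 23 members and within 1.5-fold for 41. In bulk tissue, fewer cells of a type and less RNA per cell cannot be told apart.

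**Figure D2:**
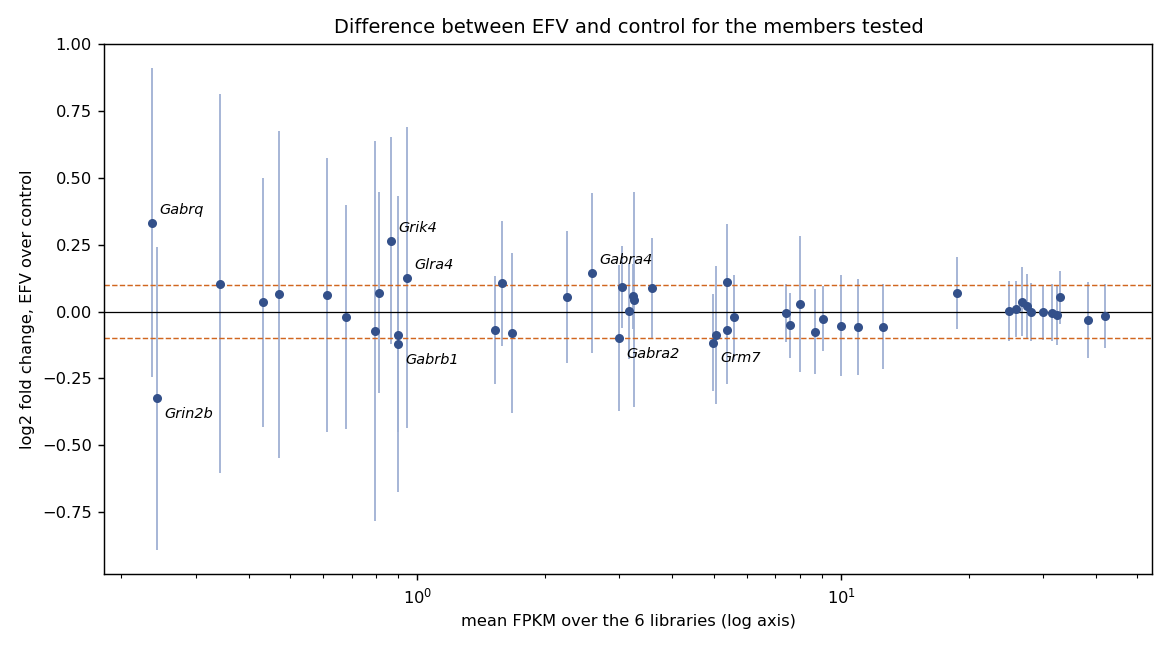
Log2 fold change of EFV over control for the 49 members tested, against the mean FPKM over the 6 libraries on a log axis; bars are 95% intervals from edgeR and dashed lines mark a log2 fold change of 0.098. The bars narrow with the level, and every one crosses 0.

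AMPA receptors were led by Gria2, the subunit that limits calcium entry once its transcript is edited at the pore. Gria2 measured 26.6, 27.2 and 26.8 FPKM in control and 26.2, 26.5 and 27.5 FPKM in EFV. It supplied 43.5% ± 1.2 of the summed AMPA FPKM in control and 42.8% ± 0.6 in EFV (SD, n = 3). Gria4 followed with 29.4%, Gria1 with 14.7% and Gria3 with 12.4% of the control sum, the same order in both groups. The log2 fold change of Gria2 was 0.04 (SE 0.06), a 95% interval of 0.938 to 1.12 in fold, and those of the 4 subunits lay between -0.05 and 0.07.

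The reference coding sequence at the pore loop is shown for the 4 AMPA subunits because it holds the codon, in capitals, at which adenosine editing is known to change glutamine to arginine in Gria2, and because it shows how alike the members are over the span of a short read. Each stretch of 66 bases lies within 1 coding exon (GRCm38, GENCODE M21, printed in transcript direction): exon 11 of Gria1 (chr11:57243052-57243117, plus strand), of Gria2 (chr3:80706890-80706955, minus strand) and of Gria3 (chrX:41610223-41610288, plus strand), and exon 12 of Gria4 (chr9:4464116-4464181, minus strand).
Gria1: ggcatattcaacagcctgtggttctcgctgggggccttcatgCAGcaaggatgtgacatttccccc
Gria2: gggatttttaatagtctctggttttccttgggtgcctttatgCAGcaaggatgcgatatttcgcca
Gria3: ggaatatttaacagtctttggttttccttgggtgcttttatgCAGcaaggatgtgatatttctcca
Gria4: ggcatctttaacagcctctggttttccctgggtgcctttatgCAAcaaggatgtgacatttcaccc
Gria2 differs from Gria3 at 7 of these 66 bases, from Gria4 at 10 and from Gria1 at 15. Reads that match several genes are divided among them by the program that made the counts and leave fractions. Counts more than 0.005 from a whole number were found for 7 of the subunits in any library. Among the AMPA subunits, Gria2, Gria3 and Gria4 each had such a count in 1 library and Gria1 in 0. Editing at the capital codon cannot be read from gene counts, so whether it differed was not tested.

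For Gria2 the count and the FPKM moved apart. The transcript length that the program used for it, a mean over isoforms weighted by their abundance, ran from 7207 bases in control library 3 to 8227 bases in EFV library 3, and the counts from 4677 to 5435 in the same libraries. Its FPKM ratio of EFV over control was -0.0070 on the log2 scale, where the count test gave 0.04. For most members the length was nearly constant. The longest length over the shortest was 1.141 for Gria2, 1.249 for Gabrq and 1.106 for Grin2d. For Gabrq it was 3959 bases in control library 2 and 4943 in control library 3, so its FPKM and counts also moved apart there.

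Kainate receptors were dominated by Grik1, the subunit that OFF bipolar cells are known for, and by Grik5, a partner subunit that needs another subunit to form a working channel. Grik1 measured 32.1, 31.1 and 33.5 FPKM in control and 32.4, 33.6 and 30.8 FPKM in EFV. Its log2 fold change was -0.01 (SE 0.05), a 95% interval of 0.916 to 1.071 in fold. Grik1 and Grik5 made up 49.3% and 41.3% of the control kainate FPKM. Grik4, a partner subunit of the same kind as Grik5, was low and was the member nearest to a difference.

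Grik4 measured 0.86, 0.79 and 0.69 FPKM in control and 0.96, 0.89 and 1.01 FPKM in EFV. It was the only member whose groups did not overlap in both FPKM and counts scaled to library size (CPM). Its log2 fold change was 0.27 (SE 0.17), with a 95% interval from -0.12 to 0.65, and neither the unadjusted p nor the adjusted p of 0.999 passed. Grik2 measured 3.21, 3.16 and 3.09 FPKM in control and 3.43, 3.20 and 3.32 FPKM in EFV, and its FPKM ranges overlapped although its CPM did not. Among the delta receptors, which act at synapses more as adhesion proteins than as glutamate channels, Grid1 held 76.1% of the control sum, with 4.95, 6.10 and 5.41 FPKM in control and 5.14, 5.45 and 5.30 FPKM in EFV. Its groups overlapped.

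NMDA receptors all contain the subunit encoded by Grin1, and their kinetics depend on the partner from the Grin2 genes. Grin1 measured 30.5, 29.6 and 29.3 FPKM in control and 29.3, 29.2 and 31.9 FPKM in EFV, 70.0% ± 0.8 and 71.5% ± 1.2 of the NMDA sum. Its log2 fold change was -0.0022 (SE 0.05), a 95% interval of 0.930 to 1.073 in fold. The most abundant partner was Grin2d, with 8.78, 9.30 and 9.04 FPKM in control and 7.24, 8.68 and 9.10 FPKM in EFV, where EFV library 1 was the lowest of the 6. The partners most studied in brain were low: Grin2a averaged 0.427 FPKM and Grin2b 0.270 FPKM in control, below Grin2c at 0.787 FPKM.

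Grin2b had the most negative estimate of all members, a log2 fold change of -0.32 (SE 0.25, 95% interval -0.89 to 0.24, adjusted p = 0.999). It measured 0.25, 0.30 and 0.26 FPKM in control and 0.17, 0.19 and 0.29 FPKM in EFV. EFV libraries 1 and 2 lay below every control library and EFV library 3 lay within them, and without EFV library 3 the log2 fold change was -0.59 with an unadjusted p of 0.040, past the limits of the study. Reads over Grin1 carry a further limit. Grin1os lies on the opposite strand and shares 1307 exon bases with Grin1, and whether the libraries keep the strand is not stated, so the reads of the pair cannot be told apart there; Grin1os itself was listed at 0.51 to 0.73 FPKM. Opposite-strand overlaps of exons were also found for Grin3b (1059 bases with the protein-coding gene Tmem259), Grin2d (643 bases with an antisense gene) and Grm6 (599 bases with an antisense gene). There too the strand of the reads is not known. These overlaps are from GENCODE M21, and the annotation release behind the counts is not given. Counts were fractional in 6 libraries for Grin1 and Grin2d, and in 0 for Grin3b and Grm6.

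Among metabotropic receptors Grm6 was the most abundant. It measured 29.5, 28.0 and 25.9 FPKM in control and 28.9, 27.2 and 28.9 FPKM in EFV, and the EFV values lay within the control range. Its log2 fold change was -0.0019 (SE 0.05), a 95% interval of 0.925 to 1.08 in fold. Within group III, whose members reduce transmitter release at many synapses, Grm6 held 56.6% ± 2.1 in control and 57.5% ± 0.2 in EFV, followed by Grm8 with 25.8% of the control sum, Grm7 with 10.5% and Grm4 with 7.1%. The ON bipolar cells that express Grm6 can be followed by other genes too: the 9 bipolar markers, Grm6 left out, summed to 747 to 800 FPKM in control and 752 to 785 FPKM in EFV.

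Grm7, a presynaptic receptor of low glutamate affinity, measured 4.94, 5.64 and 4.87 FPKM in control and 5.01, 4.80 and 4.61 FPKM in EFV. Its log2 fold change was -0.12 (SE 0.08), and the groups overlapped. Grm5, of the group I receptors that raise intracellular calcium, measured 2.98, 3.06 and 2.76 FPKM in control and 3.20, 3.26 and 3.03 FPKM in EFV, with overlapping groups. In group II, which lowers cyclic AMP, Grm2 held 93.9% of the control sum, with 5.40, 4.64 and 5.30 FPKM in control and 5.62, 4.88 and 6.43 FPKM in EFV. The log2 fold change of Grm2 was 0.11 (SE 0.10); EFV library 3 was the highest of the 6 and the groups overlapped. Without EFV library 3 the log2 fold change was 0.025, without control library 2 it was 0.052, and without EFV library 2 it was 0.19.

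GABA-A receptors of the common kind combine alpha, beta and gamma subunits. Gabra3, an alpha subunit, measured 11.3, 11.5 and 10.4 FPKM in control and 11.3, 9.51 and 11.7 FPKM in EFV. Gabrb2, a beta subunit, measured 7.53, 7.51 and 7.06 FPKM in control and 7.66, 7.32 and 7.31 FPKM in EFV. The groups of both genes overlapped, with log2 fold changes of -0.06 (SE 0.08) and -0.0057 (SE 0.05).

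Other GABA-A subunits were low, with wide intervals. Gabrq, which encodes the theta subunit, had the most positive log2 fold change, 0.33 (SE 0.26, 95% interval -0.25 to 0.91, adjusted p = 0.999), on 0.24, 0.21 and 0.19 FPKM in control and 0.30, 0.22 and 0.26 FPKM in EFV. These values rest on 19 to 34 counts per library. Gabra4, an alpha subunit of receptors outside the synapse, measured 3.00, 2.09 and 2.23 FPKM in control and 2.78, 2.82 and 2.62 FPKM in EFV (log2 fold change 0.14, SE 0.13). Control library 1 was the highest of the 6, and without it the log2 fold change was 0.31 with an unadjusted p of 0.017; Gabra4 and Gria4 then passed the limits of the study. Gabrd, the delta subunit that pairs with Gabra4 in many neurons, averaged 7.89 ± 1.22 FPKM in control and 8.13 ± 0.61 FPKM in EFV (SD, n = 3), and Gabra2 and Gabrb1 had log2 fold changes of -0.10 (SE 0.12) and -0.12 (SE 0.24).

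Neighbouring GABA-A genes in the genome (GRCm38) could differ in level. On chromosome X, Gabra3 averaged 10.97 FPKM over the 6 libraries, between Gabre at 0.082 and Gabrq at 0.237 FPKM. On chromosome 5 the 4 neighbours Gabrg1, Gabra2, Gabra4 and Gabrb1 were all low, between 0.900 and 2.99 FPKM, and Gabrg3 and Gabra5 on chromosome 7 averaged 0.797 and 0.472 FPKM.

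The rho subunits form GABA channels of slow decay and were among the most abundant members. Gabrr1 measured 45.1, 40.5 and 40.2 FPKM in control and 41.5, 43.3 and 40.9 FPKM in EFV. Gabrr2, which lies 36691 bases from Gabrr1 on chromosome 4, measured 32.4, 29.8 and 31.7 FPKM in control and 31.3, 32.2 and 31.1 FPKM in EFV. Gabrr3, on chromosome 16, measured 9.74, 9.78 and 10.8 FPKM in control and 9.85, 10.4 and 9.34 FPKM in EFV. The shares of the rho sum were 50.3%, 37.6% and 12.1% in control and 50.3%, 37.9% and 11.8% in EFV, and the 3 log2 fold changes lay between -0.05 and -0.0042. The 95% intervals in fold were 0.910 to 1.073 for Gabrr1, 0.926 to 1.073 for Gabrr2 and 0.845 to 1.10 for Gabrr3.

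**Figure D3:**
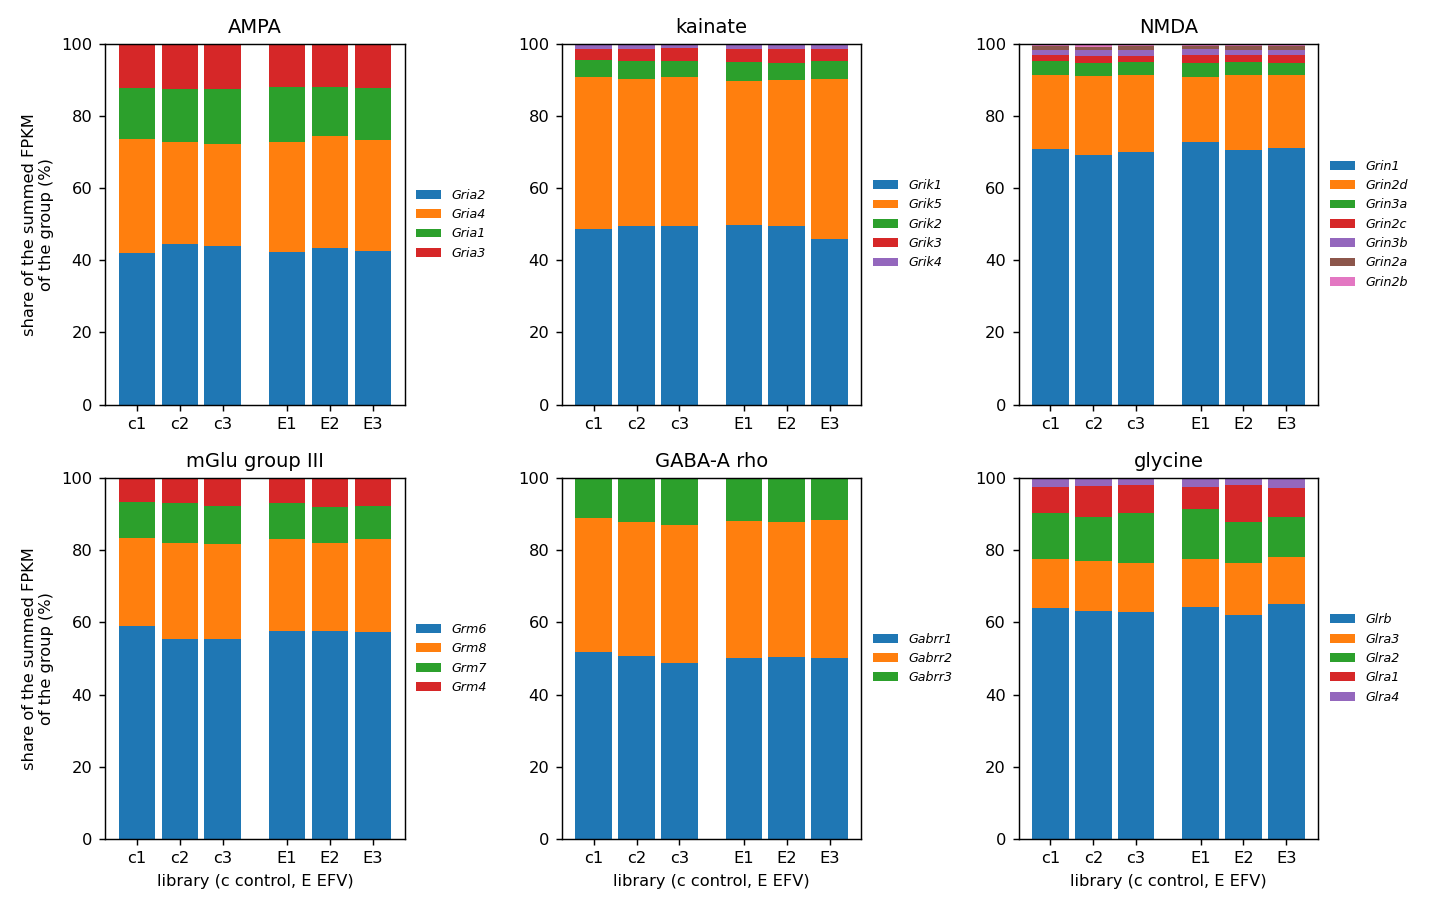
Share of each subunit in the summed FPKM of its group, in percent, for 6 groups of subunits and each library (c1 to c3 control, E1 to E3 EFV). Grin1 holds 70.0% of the NMDA sum and Gabrr1 50.3% of the rho sum in control, and the order of the leading subunits is the same in both groups.

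Glycine receptors are built of alpha subunits and the beta subunit encoded by Glrb, which anchors them at the synapse. Glrb measured 26.2, 25.9 and 24.9 FPKM in control and 27.3, 24.8 and 26.3 FPKM in EFV (log2 fold change 0.0085, SE 0.05), and held 63.3% ± 0.7 and 63.8% ± 1.7 of the glycine receptor FPKM. Of the alpha subunits, Glra3 and Glra2 were the most abundant, with means of 5.60 and 5.19 FPKM in control. Their control ranges nearly touched, from 5.48 to 5.75 and from 4.93 to 5.47 FPKM. Glra1, known from the spinal cord and from rod pathway synapses, measured 2.91, 3.57 and 3.05 FPKM in control and 2.57, 4.13 and 3.25 FPKM in EFV. It spread more among the EFV pools than between the groups, and Glra4 was the lowest alpha subunit, with a log2 fold change of 0.13 (SE 0.25).

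Precision followed the level. Among the 14 members at 10 FPKM or more the largest absolute log2 fold change was 0.07, and their 95% intervals stayed between 0.847 and 1.15 in fold. Among the 13 tested members below 1 FPKM, the interval reached 0.36 to 0.71 on the log2 scale to either side of the estimate. Changes of that size or smaller could be missed there, and the smallest detectable change was not computed.

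The members sat lower in control library 3 than in the other libraries. Their median deviation from the mean of each gene was -0.06 in log2 CPM in that library, and between -0.0060 and 0.03 in the other 5. It was the lowest of the 6 libraries for 15 of the 49 tested members (30.6%), against 16.3% of all genes. It is the library with the high lens markers, whose part in this was not tested. Without it the median log2 fold change of the members was -0.02 and 0 passed the limits of the study. The sums of amacrine markers (569 to 601 FPKM in control, 560 to 599 in EFV) and ganglion cell markers (469 to 514 and 481 to 525) overlapped between the groups. The sum of the 12 RPE markers overlapped too (264 to 318 and 303 to 315 FPKM), but 68.7% to 79.0% of it is Rlbp1, which Müller cells also express. Without Rlbp1 the sum was 86.0, 55.4 and 83.6 FPKM in control and 76.4, 94.7 and 94.5 FPKM in EFV, lowest in control library 2. The mean was higher in EFV for 10 of the 12 markers, a count for which no share over all genes was computed. For 1 of the 12, Rpe65, named after its values were seen, the groups did not overlap (4.65, 2.35 and 5.69 FPKM in control and 6.05, 6.59 and 6.69 FPKM in EFV). Over all genes tested, 8.14% had groups without overlap in either direction (log2 CPM). The part of RPE content in the results was not tested.

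**Figure D4:**
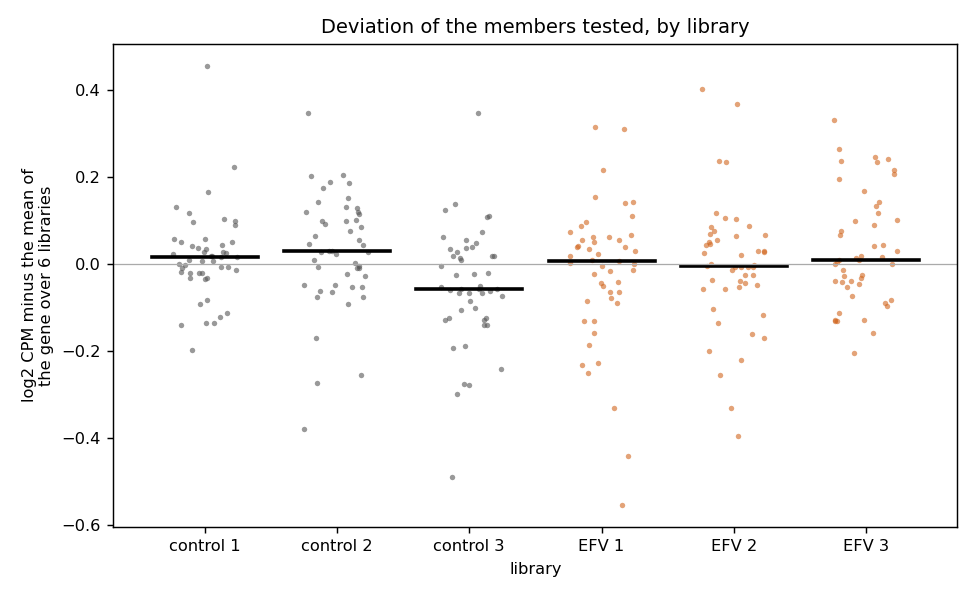
Deviation of each of the 49 tested members from its own mean over the 6 libraries, in log2 CPM, by library (grey control, orange EFV); the black bar is the median. The bar of control 3 lies at -0.06, below the other 5.

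The genes that work with these receptors gave a similar picture. Of 96 genes in 7 lists (auxiliary proteins, scaffolds, inhibitory postsynapse, mGluR6 cascade, transporters, enzymes and GABA-B receptors), 93 were tested, with a median log2 fold change of -0.0050, and 0 passed an adjusted p of 0.05 by edgeR. The limits of the study were passed by 4 of 93, beside 3.01% of all genes, with 2 higher and 2 lower. The lists were chosen with earlier results of these data known. Gng13 and Ric8b, both among the 4, are also among the genes that the study itself reported as changed. The count of 4 is therefore not independent of these data. This count rests on single libraries: it was 0 without control library 2 or without EFV library 1, 2 without control library 1 or without EFV library 2, and 3 without control library 3 or without EFV library 3.

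The 2 higher genes were Neto2 and Ric8b. Neto2, an auxiliary protein of kainate receptors, measured 5.51, 4.87 and 4.86 FPKM in control and 5.84, 5.52 and 6.10 FPKM in EFV, with a log2 fold change of 0.18 (SE 0.07, adjusted p = 0.999). Ric8b, a chaperone of G-protein alpha subunits, measured 36.0, 35.6 and 35.8 FPKM in control and 40.5, 37.6 and 39.4 FPKM in EFV, with a log2 fold change of 0.11 (SE 0.04, adjusted p = 0.999). In both genes every EFV library lay above every control library. The 2 lower genes were Frrs1l, which assists the assembly of AMPA receptors, and Gng13, a G-protein gamma subunit of ON bipolar cells. Frrs1l measured 6.54, 7.56 and 7.07 FPKM in control and 6.45, 6.37 and 6.25 FPKM in EFV (log2 fold change -0.17, SE 0.07), and its groups did not overlap. Gng13 measured 290, 273 and 256 FPKM in control and 237, 237 and 266 FPKM in EFV (log2 fold change -0.16, SE 0.06), and its groups overlapped. Frrs1l did not pass these limits under total-count scaling, DESeq2, limma or the replicate block, Gng13 did not by limma, and Neto2 did not by DESeq2.

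The most abundant gene of each list differed little. They were Cacng7 (63.3 ± 4.6 FPKM in control and 62.7 ± 1.2 in EFV), an auxiliary protein of AMPA receptors, and Dlg4 (171.1 ± 7.2 and 170.6 ± 5.8), the scaffold PSD-95. Gabarapl1 (141.4 ± 4.9 and 140.2 ± 4.3) belongs to a family that includes a GABA-A receptor trafficking protein, and Slc17a7 (661 ± 27 and 657 ± 20) is the vesicular glutamate transporter VGLUT1. Glul (796 ± 19 and 789 ± 13), the glutamine synthetase of Müller cells, and Gabbr1 (44.5 ± 1.0 and 44.5 ± 1.1), a subunit of the metabotropic GABA-B receptor, had overlapping groups too. Gnb5, a G-protein beta subunit that pairs with RGS proteins, was the exception among these 7: it measured 287, 292 and 295 FPKM in control and 300.3, 303 and 311 FPKM in EFV without overlap, with a log2 fold change of 0.05 (SE 0.04, adjusted p = 0.999).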

How the data were processed

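RNA was measured in 6 libraries of pooled retina plus RPE, 3 control and 3 EFV. The labels describe selection of polyadenylated RNA and random primers; strandedness and the annotation release are not given in the sources used here. The authors made the deposited expected counts with RSEM 1.2.12 after Bowtie2 2.2.5 (HISAT2 2.0.4 is also named in the submitters' processing notes) against mm10 (GRCm38). The authors divided counts by transcript length and library total to give the deposited FPKM, and deposited the isoform-weighted length of each gene beside them.

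Expected counts were rounded. Genes with 10 counts in at least 3 libraries were tested with edgeR 4.0.16 in R 4.3.3 (quasi-likelihood, TMM scaling with group as the only term, two-sided, 95% intervals, BH over 15537 genes). The biological coefficient of variation was 0.0983. Fold changes are EFV over control. The study states its limits for a Poisson model; here they were applied to the p of edgeR. No library repeated another: the chi-square of each pair, divided by its degrees of freedom, lay between 5.47 and 13.7. At 23455167 to 24590278 counts per library, counting error weighs most on genes near 10 counts. With 3 pools against 3, an exact permutation test cannot pass 0.05, so p-values rest on the model. The p of edgeR sets the group difference against a spread between pools that is estimated partly from other genes. The methods were tested on simulated counts.

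Members and lists were chosen with earlier results of these data known. Named genes are the most abundant member of each class, the 4 highest and 4 lowest fold changes, and Grm6, Gabrr1, Gabrr2, Gabrr3, Glra1, Gria2, Grin1 and Grik1; Grik2, Gria4, Grin2d, Gabra3, Gabrb2, Grm5 and other members given with single values were added after their values were seen. Some members that the rule would name are counted but not reported here one by one. Genes of the 7 lists were named if past the limits of the study or the most abundant of their list. Marker sums leave out members. Alternatives were RLE and total-count scaling, other filters, DESeq2 1.42.0, limma 3.58.1 on log2(FPKM + 0.1) and log2(FPKM + 1), a Poisson model, a replicate block and leaving out each library. Sequences were read from GENCODE M21 transcripts.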

Additional observations from a re-analysis of the deposited data

How the results depend on the processing

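No member passed an adjusted p of 0.05 under any of the 15 alternatives, and the median log2 fold change of the members lay between -0.02 and 0.02. The number of members past the limits of the study was 2 under the Poisson model (14.8% of all genes) and 0 to 2 when 1 library was left out (2.5% to 3.71% of all genes): 2 without control library 1 (Gabra4 and Gria4), 1 without EFV library 1 (Glra2) and 1 without EFV library 3 (Grin2b). For the genes of the 7 lists the number was 2 by DESeq2, 11 under the Poisson model and 0 to 3 when 1 library was left out. Under the Poisson model the number of all genes past these limits was 2305, against 467, and by DESeq2 269. DESeq2 called 11 genes at an adjusted p of 0.05, the Poisson model 2043 and edgeR 0. The causes were not tested.

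Whether the replicate numbers pair the samples cannot be told from these values. Deviations of same-numbered libraries from their group means correlated weakly, at 0.125, 0.083 and 0.099 over genes. Those of differently numbered libraries correlated at -0.101 to -0.0063, so each library correlated best with its own number. With the replicate number as a block, 0 members, 4 genes of the lists and 514 of all genes passed the limits of the study; of the 4, Nptxr took the place of Frrs1l.

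Several estimates changed sign, most of them near 0 but also Gabrb1 (-0.12, and 0.0431 without control library 3), none of them past the limits of the study in any fit. Scaling by total counts, which moves the median of all genes to 0.0167, gave Gabrr2 0.0108, Grik1 0.0010, Grin1 0.0136 and Grm6 0.0136. By limma, with pseudocounts of 0.1 and 1, the values were 0.0007 and 0.0006 for Gabrr1, 0.0131 and 0.0127 for Gabrr2, -0.0072 and -0.0070 for Gria2, 0.0020 and 0.0020 for Grik1, 0.0133 and 0.0129 for Grin1, and 0.0279 and 0.0270 for Grm6. When 1 library was left out, the log2 fold changes that changed sign ranged as follows: Gabrr1 -0.0501 to 0.0318, Gabrr2 -0.0329 to 0.0156, Glra1 -0.1549 to 0.2012, Grin1 -0.0416 to 0.0177, Grm6 -0.0444 to 0.0269, Gabrd -0.0834 to 0.1221, Grid1 -0.1419 to 0.0212, Gabrb1 -0.2931 to 0.0431, Glrb -0.0229 to 0.0372, Gria2 -0.0063 to 0.0660 and Grik1 -0.0540 to 0.0236. Those that kept their sign ranged from 0.0252 to 0.1892 for Grm2, 0.0169 to 0.2579 for Glra4, 0.0484 to 0.3137 for Gabra4, 0.2193 to 0.4811 for Gabrq, 0.1824 to 0.3347 for Grik4, -0.5880 to -0.1862 for Grin2b, -0.1565 to -0.0426 for Grm7 and -0.1901 to -0.0313 for Gabra2.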
